A study of Homo sapiens with 3 samples.

Results

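The 35 genes described here encode integrin and laminin chains. They were chosen by symbol alone, as every gene named ITGA, ITGB or LAMA, LAMB or LAMC with a number or chain letter that had at least 1 probe set annotated to it and to no other gene. They are 18 integrin alpha chains, 7 integrin beta chains and 10 laminin chains, with 95 probe sets, out of 19775 named genes on the array. The RNA came from MDA-MB-231, an established breast cancer line of basal, mesenchymal type, and was read on Affymetrix arrays of 54675 probe sets. There were 3 groups: tamoxifen (an antiestrogen) at 1 µM, estradiol (the main natural estrogen) at 1 µM, and vehicle (0.1% ethanol). All cells stood for 4 h in medium with 10% charcoal-stripped serum and were then treated for 3 h. By the labels each group held 1 array, so no difference below has a replicate spread, an interval or a p-value, and their number limits the precision.

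Integrins are membrane receptors made of 1 alpha and 1 beta chain that tie the extracellular matrix to the actin cytoskeleton. The alpha chain largely sets the ligand (collagen, laminin, or the RGD sequence of fibronectin and vitronectin), and the beta chain binds talin and kindlin inside the cell. Laminins are trimers of an alpha, a beta and a gamma chain that build basement membranes and are themselves integrin ligands. In breast tissue these receptors hold epithelial cells on the basement membrane, and in invasive cells they support attachment and migration.

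The deposited log2 values are relative to an unstated baseline for each probe set. Higher was taken to mean more RNA. Levels of different genes therefore cannot be compared, and results are differences between arrays of 1 gene. A probe set was kept when the binary steps of its values placed its level at 4 (log2) or above. This brightness floor left 12072 named genes in all, 25 of them integrin or laminin genes with 40 probe sets, of which 17 genes lay in the brightest band (8 to 16). Chance can place a probe set in a band brighter than its own. Each gene is given as the average of whichever of its probe sets share the brightest band it reaches. Differences of at least 1.5-fold (0.58 on the log2 scale) were counted. The vehicle column had a narrower spread over genes (SD 0.20) than the tamoxifen (0.49) and estradiol (0.49) columns. Its numbers also lie on finer binary steps, the finest of the 3 columns in 56.6% of probe sets, against 7.53% for tamoxifen and 7.65% for estradiol, as numbers that had been divided by 2 would. Whether the column is a mean of 2 arrays, or is scaled otherwise, is not known, so the size of every difference from vehicle depends on a scale that is not settled. A second reading, with the vehicle number doubled, is therefore given beside the genes past 1.5-fold in either reading and some others, and for all 25 genes in the plot of differences from vehicle. In bulk RNA, fewer cells of a type and less RNA per cell cannot be told apart. Of 9 markers of mesenchymal or basal breast cells with a probe set, all 9 lay above the floor, among them VIM and CD44. The epithelial cadherin gene CDH1 and the luminal factor gene FOXA1 lay below it, while 8 of 10 epithelial or luminal markers, EPCAM and KRT18 included, lay above. The 24 probe sets of the poly-A control RNAs exceeded vehicle by a median of 0.87 with tamoxifen and 1.04 with estradiol (0.39 and 0.47 with the vehicle doubled). The part of these controls in the results was not tested.

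Against vehicle, ITGB8, ITGA2 and LAMC1 were at least 1.5-fold higher with both ligands, and ITGB1 was so with tamoxifen. No integrin or laminin gene was at least 1.5-fold lower. With tamoxifen 4 of the 25 genes were higher, beside 6.97% of all genes above the floor, and 0 of 25 were lower, beside 4.32% of all genes. With estradiol 3 of 25 were higher, beside 5.83%, and 0 were lower, beside 2.64%. The median of the 25 genes was 0.03 with tamoxifen and 0.03 with estradiol, and that of all genes was 0.02 and 0.02. With either ligand 13 of the 25 lay above 0 and 12 below, so these medians do not measure how far the genes differed. The SD over the 25 genes was 0.54 with tamoxifen and 0.37 with estradiol, beside 0.38 and 0.35 over all genes. Over the 17 genes of the brightest band the median was 0.21 with tamoxifen and 0.18 with estradiol, and over 16 genes without probe set types that may cross-react it was 0.22 with tamoxifen and 0.01 with estradiol. Both comparisons use the same vehicle array. After doubling of the vehicle, the higher genes were ITGB8 and ITGA7 with tamoxifen (beside 7.14% of all genes) and ITGB8 with estradiol (beside 4.39%). In that setting ITGA5 and ITGA2B were lower with tamoxifen (beside 3.64%), and none was lower with estradiol (beside 1.91%).

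**Figure D1:**
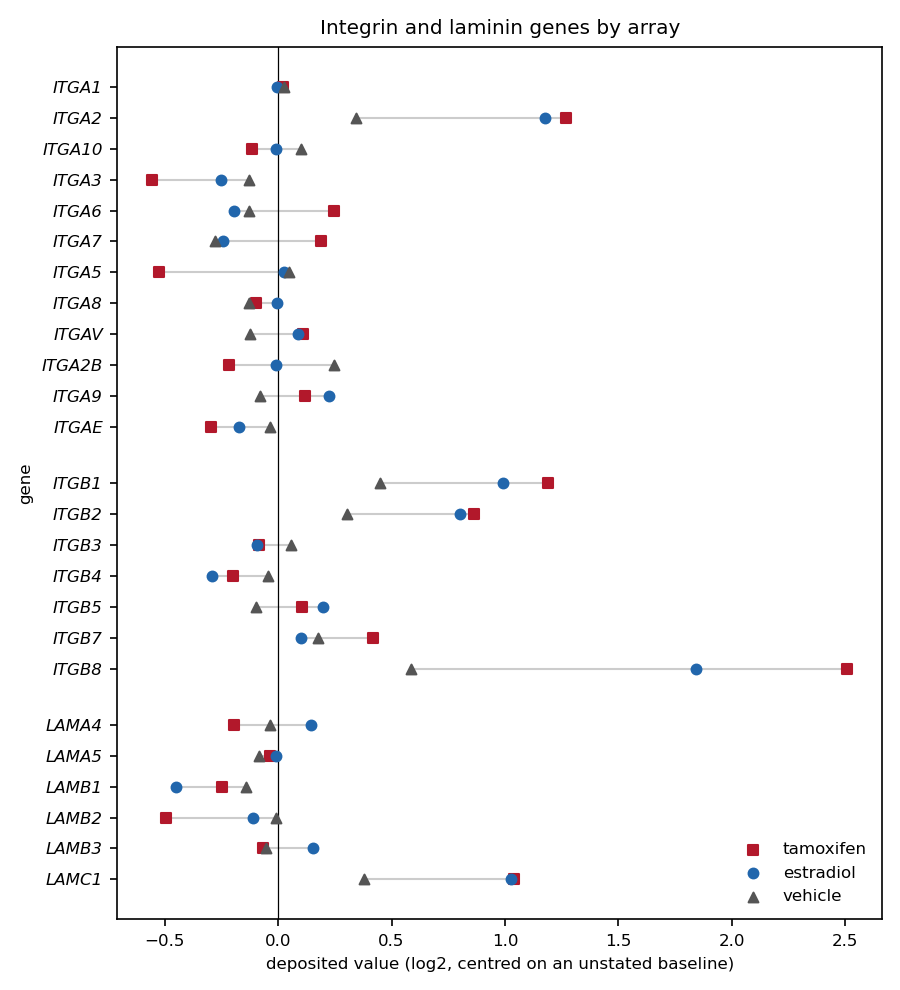
Deposited log2 values (x axis, centred on an unstated baseline) of the 25 integrin and laminin genes above the floor (y axis) on the tamoxifen (squares), estradiol (circles) and vehicle (triangles) arrays, 1 array each. ITGB8 spans the widest range, 2.51 with tamoxifen, 1.84 with estradiol and 0.58 in vehicle, while ITGA2, ITGB1, ITGB2 and LAMC1 show both ligand arrays to the right of vehicle.

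ITGB8 encodes the beta chain that pairs with the alpha v chain and binds latent TGF-beta. Its value was 2.51 on the tamoxifen array, 1.84 on the estradiol array and 0.58 in vehicle. The gene was 3.80-fold higher with tamoxifen than in vehicle (difference 1.93) and 2.39-fold higher with estradiol (1.26), ranks 10 and 55 from the top of 12072 genes. Doubling the vehicle gave differences of 1.34 and 0.67, ranks 18 and 299. These values rest on 1 probe set in the brightest band. The other 4 probe sets of ITGB8 lay in the dimmest band, with differences of 0.04 to 0.62 with tamoxifen and 0.06 to 0.44 with estradiol. All 5 were above 0 in both comparisons. The mean of all 5 was 0.66 with tamoxifen and 0.46 with estradiol, so the second no longer passed 1.5-fold.

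ITGA2, the alpha chain of the main collagen receptor of epithelial cells and platelets, had 2 probe sets, both in the brightest band. The first had 1.33 on the tamoxifen array, 1.12 on the estradiol array and 0.34 in vehicle, and the second 1.20, 1.23 and 0.35. Both probe sets thus put each ligand array well above vehicle, and they do not agree on which ligand array is higher. The gene was 1.90-fold higher with tamoxifen (difference 0.92) and 1.78-fold higher with estradiol (0.83). In the doubled-vehicle reading it stood at 0.58 and 0.49, just under and under the 1.5-fold line.

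LAMC1 encodes the laminin gamma chain that most laminin trimers contain. Its value was 1.04 on the tamoxifen array, 1.03 on the estradiol array and 0.38 in vehicle. The difference from vehicle was 0.66 with tamoxifen and 0.65 with estradiol, and 0.28 and 0.27 with the vehicle doubled. The second probe set of the gene, in the 4 to 8 band, had 0.48, 0.49 and 0.12 on the same arrays, a difference of 0.36 with either ligand. Averaged, both probe sets gave 0.51 with tamoxifen and 0.51 with estradiol, short of 1.5-fold.

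The starts of these 3 genes, which were higher with both ligands, and of ITGA5, which was lowest with tamoxifen, are shown for what they share in sequence. Promoter windows of RefSeq (GRCh38.p14), 250 bases up to the annotated start, were at hand for 26 integrin and laminin genes (33 windows, with ITGB6 and LAMA3 among them). The 4 printed here were picked after the values were seen and run 5′ to 3′ on the gene's strand. Capitals mark matches to the SP1 box (GGGCGG, either strand) or to the NF-kappaB consensus.
ITGB8 promoter, chr7:20330650-20330899, + strand: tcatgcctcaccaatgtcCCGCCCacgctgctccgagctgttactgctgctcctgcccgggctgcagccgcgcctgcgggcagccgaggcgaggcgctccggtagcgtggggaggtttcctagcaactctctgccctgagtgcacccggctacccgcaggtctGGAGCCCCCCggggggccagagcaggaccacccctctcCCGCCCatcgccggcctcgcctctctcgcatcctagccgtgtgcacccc
ITGA2 promoter, chr5:52989102-52989351, + strand: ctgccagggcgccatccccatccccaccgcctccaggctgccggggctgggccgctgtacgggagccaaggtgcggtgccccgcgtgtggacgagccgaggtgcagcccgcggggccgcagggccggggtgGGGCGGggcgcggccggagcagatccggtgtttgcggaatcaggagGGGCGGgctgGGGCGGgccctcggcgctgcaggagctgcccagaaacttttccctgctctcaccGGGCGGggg
LAMC1 promoter, chr1:183023170-183023419, + strand: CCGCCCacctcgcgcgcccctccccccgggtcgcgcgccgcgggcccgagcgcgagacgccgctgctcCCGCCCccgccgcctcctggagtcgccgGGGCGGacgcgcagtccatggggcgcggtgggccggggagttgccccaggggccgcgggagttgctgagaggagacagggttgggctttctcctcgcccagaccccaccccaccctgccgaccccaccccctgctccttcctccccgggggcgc
ITGA5 promoter, chr12:54419267-54419516, - strand: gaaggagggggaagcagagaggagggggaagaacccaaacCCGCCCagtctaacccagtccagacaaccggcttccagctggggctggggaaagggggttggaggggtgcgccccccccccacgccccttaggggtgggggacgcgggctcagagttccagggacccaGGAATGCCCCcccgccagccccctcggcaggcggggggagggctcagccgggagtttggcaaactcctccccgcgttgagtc

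All 4 windows are rich in G and C, 71.2% in ITGB8, 76.4% in ITGA2, 79.6% in LAMC1 and 70.0% in ITGA5, against a median of 58% over 35116 windows. The SP1 box occurred in all 4, with 2 copies in ITGB8, 4 in ITGA2, 3 in LAMC1 and 1 in ITGA5. It occurred in 17 of the 33 windows of integrin and laminin genes and in 42.6% of all windows. The NF-kappaB consensus, bound by the main inflammatory factor, was found in ITGB8 and ITGA5 among the 4. It was found in 8 of the 33 windows and in 9.96% of all windows. Windows of ITGA1, ITGA10, ITGA11 and ITGB1 and overlapping windows of LAMB3 held it too, so it is not particular to ITGB8 and ITGA5. The palindromic estrogen response element (GGTCA and its inverted repeat with 3 bases between) was found in none of the 33 windows of integrin and laminin genes and in 0.0399% of all windows. The cAMP response element (TGACGTCA) was found in none of the 33 and in 1.65% of all. The AP-1 site (TGANTCA) was found in 2 of the 33, 1 each of LAMA3 and LAMB3, and in 6.57% of all. Both strands were searched, and a match or its absence describes these letters in these windows only.

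ITGB1 is the shared beta chain of the collagen, fibronectin and most laminin receptors, and its probe sets disagreed. The 3 above the floor gave differences from vehicle of 1.20, 0.78 and 0.28 with tamoxifen and of 0.96, 1.17 and 0.12 with estradiol. In the brightest band, 1 probe set had 2.09 on the tamoxifen array, 1.85 on the estradiol array and 0.88 in vehicle. Another in the same band had 0.29, 0.13 and 0.02. One thus reads more than 1.5-fold higher with both ligands and the other under 1.5-fold with both. The mean of these 2 was 0.74 with tamoxifen and 0.54 with estradiol, and 0.29 and 0.09 with the vehicle doubled. All 3 probe sets above the floor are of types that may cross-react with other transcripts, so no ITGB1 value is left without those types. The mean over all 7 probe sets was 0.512 with tamoxifen and 0.576 with estradiol, both short of 1.5-fold (0.585).

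The other beta chains stayed within 1.5-fold of vehicle with both ligands. ITGB2, the beta chain of leukocyte integrins, had 0.86 on the tamoxifen array, 0.80 on the estradiol array and 0.30 in vehicle, so both ligand arrays stood above vehicle, by 0.56 and 0.50 (0.26 and 0.20 with the vehicle doubled). Its 3 probe sets were above 0 in both comparisons, from 0.26 to 0.56 and from 0.26 to 0.51. The leukocyte alpha chains that pair with it, ITGAL, ITGAM, ITGAX and ITGAD, all lay below the floor. Of 9 leukocyte markers with a probe set, 2 lay above the floor, both in the 4 to 8 band. PTPRC differed from vehicle by 0.22 with tamoxifen and -0.40 with estradiol, and LCP2 by 0.36 and 0.53. CD3E, CD3D, MS4A1, CD14, LYZ, TYROBP and CD53 lay below the floor, and summed levels cannot be had from centred values. The part of other cells in the ITGB2 values was not tested. ITGB7, another leukocyte chain, had 0.42, 0.10 and 0.18 on the tamoxifen, estradiol and vehicle arrays, and its tamoxifen difference of 0.24 was 0.07 with the vehicle doubled. ITGB5, which pairs with the alpha v chain to bind vitronectin, was at 0.21 with tamoxifen and 0.30 with estradiol, but 1 of its 4 probe sets stood at -0.48 and -0.67. With estradiol 2 of the 4 lay above 0 and 2 below. The mean over all 4 was 0.03 with tamoxifen and -0.02 with estradiol, so ITGB5 has no common direction. ITGB3, the beta chain of the vitronectin and fibrinogen receptors, was at -0.14 and -0.15 with both of its probe sets above the floor on opposite sides of 0. ITGB4, the laminin receptor chain of hemidesmosomes, was at -0.15 and -0.25. The mean of ITGB3 with estradiol covers probe sets at -0.66 and 0.37. That of ITGB4 with tamoxifen covers probe sets at -0.47 and 0.16, and the mean over all 5 of its probe sets was 0.11, so ITGB4 has no common direction with tamoxifen.

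**Figure D2:**
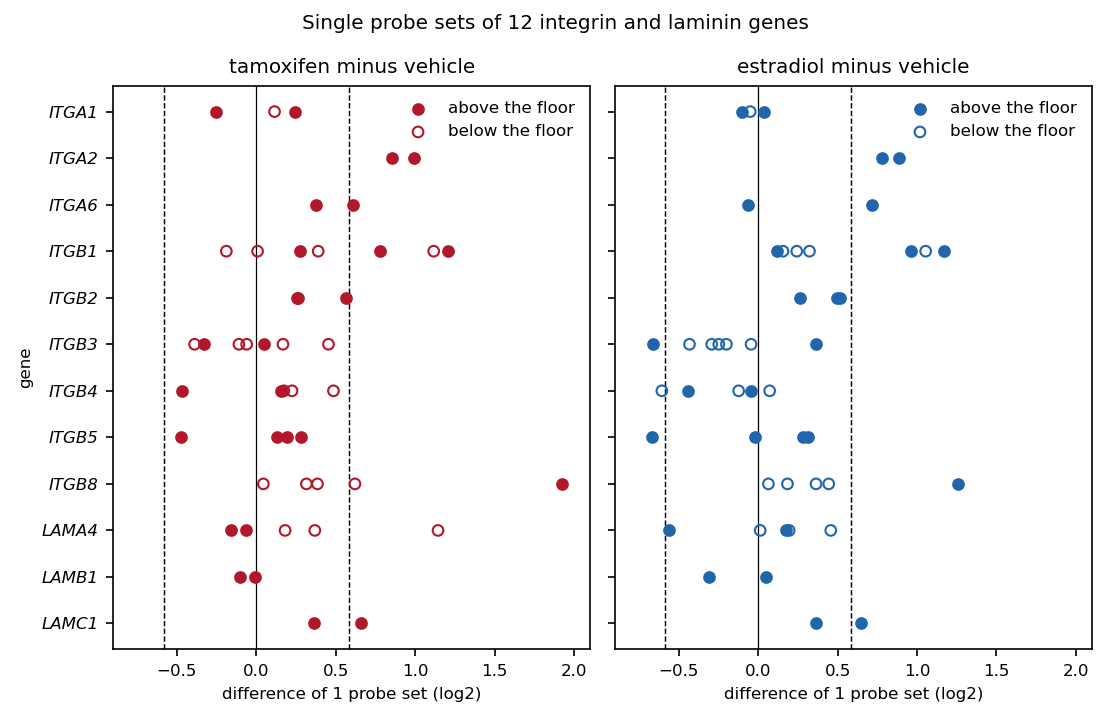
Difference of each probe set (x axis, log2) from vehicle with tamoxifen (left) and estradiol (right) for 12 genes (y axis), filled above and open below the brightness floor, with dashed lines at 1.5-fold. Both ITGA2 probe sets lie beyond the line, those of ITGB1 spread on either side of it, and the 4 dim ITGB8 probe sets lie well left of the bright one.

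Of the 12 alpha chains above the floor, ITGA2 passed 1.5-fold against vehicle as deposited. The laminin-binding alpha chains went different ways with tamoxifen. ITGA6, which forms the alpha 6 beta 4 receptor, had 0.25 on the tamoxifen array, -0.19 on the estradiol array and -0.13 in vehicle, so tamoxifen alone stood apart, 0.38 above vehicle. Its second probe set, in the 4 to 8 band, had 0.99, 1.09 and 0.38, above vehicle with both ligands by 0.61 and 0.72. The pair agreed in direction with tamoxifen and not with estradiol, where the first differed by -0.07. ITGA7, known as the laminin receptor of muscle, had 0.19, -0.24 and -0.28, a difference of 0.46 with tamoxifen and 0.03 with estradiol. The doubled vehicle put its tamoxifen difference at 0.74, and 0 of 4 muscle markers lay above the floor. The other ITGA7 probe set, in the dimmest band, was at -0.09 with tamoxifen and -0.07 with estradiol. Averaged, both ITGA7 probe sets gave 0.19 and -0.02. ITGA3, which with ITGB1 binds the anchoring laminin of epithelia, had -0.56, -0.25 and -0.13, a difference from vehicle of -0.43 with tamoxifen and -0.12 with estradiol.

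ITGA5 is the alpha chain of the classical fibronectin receptor and had 1 probe set, in the brightest band. Its value was -0.53 on the tamoxifen array, 0.02 on the estradiol array and 0.05 in vehicle. Tamoxifen alone stood low, at a difference of -0.58 (1.49-fold lower), just short of the 1.5-fold line, and estradiol was at -0.02. Among all genes this was rank 565 from the bottom with tamoxifen. With centring inside brightness bands it was -0.61, and with the vehicle doubled -0.62, both past the line. Beside this, the probe set for the 5′ end of ACTB transcripts differed between the tamoxifen array and vehicle by -1.08, while that for the 3′ end was at -0.18, which is a measure of RNA integrity or labelling. The same pair was at -0.26 and -0.10 for GAPDH. The part of this gap between the ends in the gene values was not tested. ITGAV, the alpha chain shared by the vitronectin receptors, was at 0.23 with tamoxifen and 0.21 with estradiol. ITGA2B, the platelet alpha chain, was at -0.46 and -0.26 from 1 of its 4 probe sets, and -0.70 and -0.50 with the vehicle doubled. Of 5 platelet markers with a probe set, GP9 alone lay above the floor (-0.02 with tamoxifen and -0.60 with estradiol). The other alpha chains above the floor, ITGA1, ITGA8, ITGA9, ITGA10 and ITGAE, lay between -0.26 (ITGAE) and 0.20 (ITGA9) with tamoxifen and between -0.13 (ITGAE) and 0.31 (ITGA9) with estradiol. The ITGA9 values rest on 1 of its 4 probe sets. The mean over all 4 was -0.16 with tamoxifen and -0.07 with estradiol, on the other side of 0.

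Of the laminin chains LAMC1 passed the rule and its trimer partners did not. LAMB1, a beta chain of the broadly made laminins, had -0.25 on the tamoxifen array, -0.45 on the estradiol array and -0.14 in vehicle, differences of -0.10 and -0.31 (0.04 and -0.17 with the vehicle doubled). The second LAMB1 probe set, in the 4 to 8 band, differed by -0.01 with tamoxifen and 0.05 with estradiol. The pair thus lay on opposite sides of 0 with estradiol, and its mean was -0.06 and -0.13. LAMB2, the beta chain of synaptic and kidney basement membranes, had -0.49, -0.11 and -0.01, so the tamoxifen array was the low one (-0.49 and -0.10). LAMA5, the main alpha chain of epithelial basement membranes, differed by 0.05 and 0.07. LAMA4, an alpha chain of vessel basement membranes, was at -0.16 and 0.18 in its brightest probe set. A dimmer LAMA4 probe set, in the 2 to 4 band, stood at 1.14 with tamoxifen and 0.46 with estradiol, so the probe sets of this gene give no common direction. LAMB3, the beta chain of the epithelial anchoring laminin, was at -0.01 and 0.21. LAMA3 and the beta chain ITGB6 were not analysed here beyond their promoter windows.

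**Figure D3:**
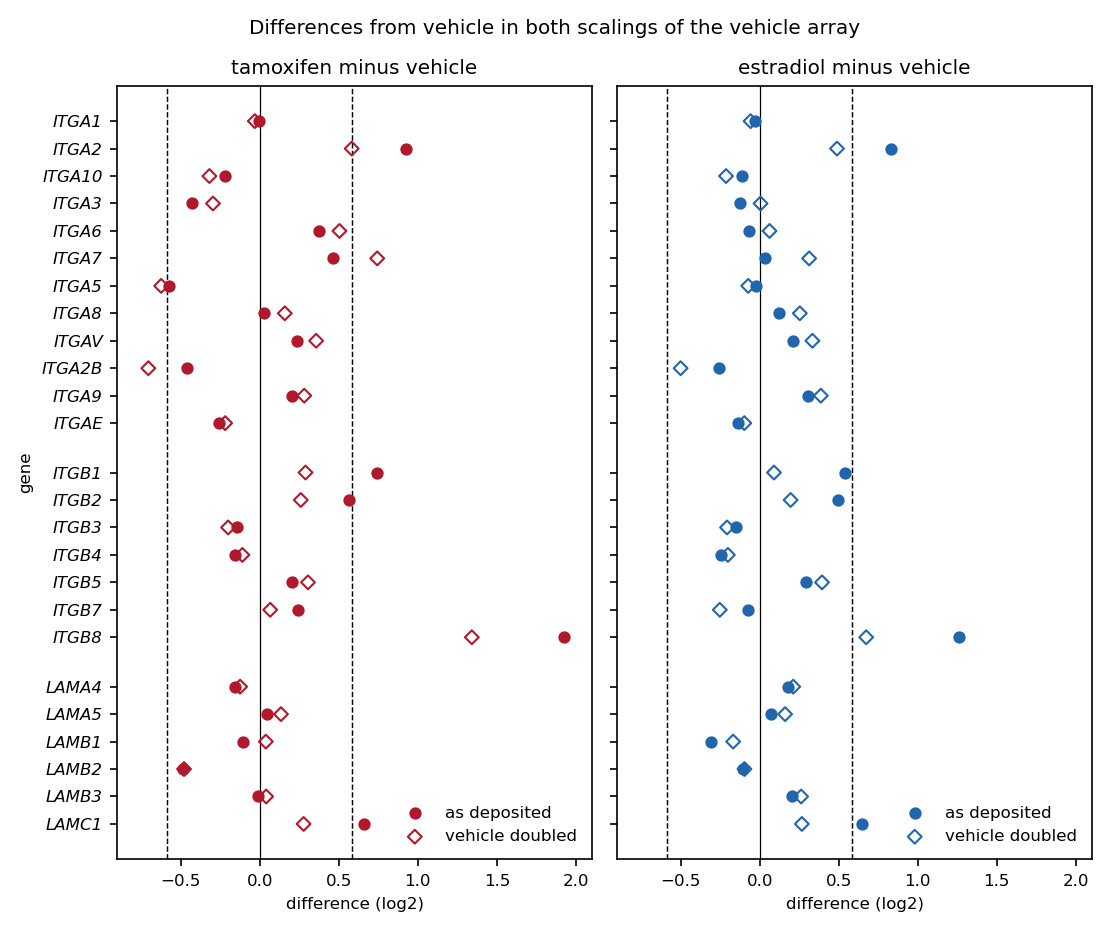
Difference from vehicle (x axis, log2) with tamoxifen (left) and estradiol (right) for 25 genes (y axis), as deposited (filled) and with the vehicle value doubled (open), with dashed lines at 1.5-fold. ITGB8 stays beyond the line in all 4 readings, while LAMC1 and ITGB1 fall inside it with the vehicle doubled.

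The remaining 10 members lay below the floor. They are ITGA4 and ITGA11, the leukocyte chains ITGAD, ITGAL, ITGAM and ITGAX, and the laminin chains LAMA1, LAMA2, LAMB4 and LAMC3. None of their 25 probe sets reached 1.5-fold. The share over all probe sets below the floor was not computed, so this count is not a trait of these genes. Their probe sets ranged from -0.30 to 0.58 with tamoxifen and from -0.51 to 0.55 with estradiol, against vehicle. The highest with tamoxifen was a probe set of ITGA4, which pairs with ITGB1 or ITGB7 to bind VCAM1, and the highest with estradiol was one of LAMA1, the laminin alpha chain of early embryos. These dim probe sets allow no statement on whether the genes are expressed.

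Tamoxifen was then set directly against estradiol at the same dose and time, a comparison that does not use the vehicle array. ITGB8 was 1.59-fold higher on the tamoxifen array (difference 0.67, rank 114 from the top) and was the 1 gene of 25 past 1.5-fold upward, beside 1.57% of all genes. None was 1.5-fold lower, beside 2.2% of all genes. ITGA5 was the lowest at -0.55 (rank 331 from the bottom), followed by LAMB2 at -0.38, LAMA4 at -0.34 and ITGA3 at -0.30. The other LAMA4 probe set above the floor stood at 0.50, and the mean over all LAMA4 probe sets was 0.24. LAMA4 thus has no common direction here. The laminin-binding chains ITGA6 (0.44) and ITGA7 (0.43) came next to ITGB8 at the high end, then ITGB7 (0.32). The second ITGA6 probe set above the floor stood at -0.10, and a dimmest-band ITGA7 probe set at -0.01. ITGA2 (0.09), LAMC1 (0.01) and ITGAV (0.02) had nearly equal values on both arrays. The median of the 25 genes was 0.01 and that of all genes -0.02. On the ACTB transcript the 5′ probe set differed by -0.996 and the 3′ probe set by -0.05 in this comparison too, and its part in the low genes was not tested. Of the 11 members with several probe sets above the floor, none had all of them on the same side of 0 here, against 48.0% of 5367 such genes. The single probe sets of ITGB8 and ITGA5 above the floor have no such check.

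**Figure D4:**
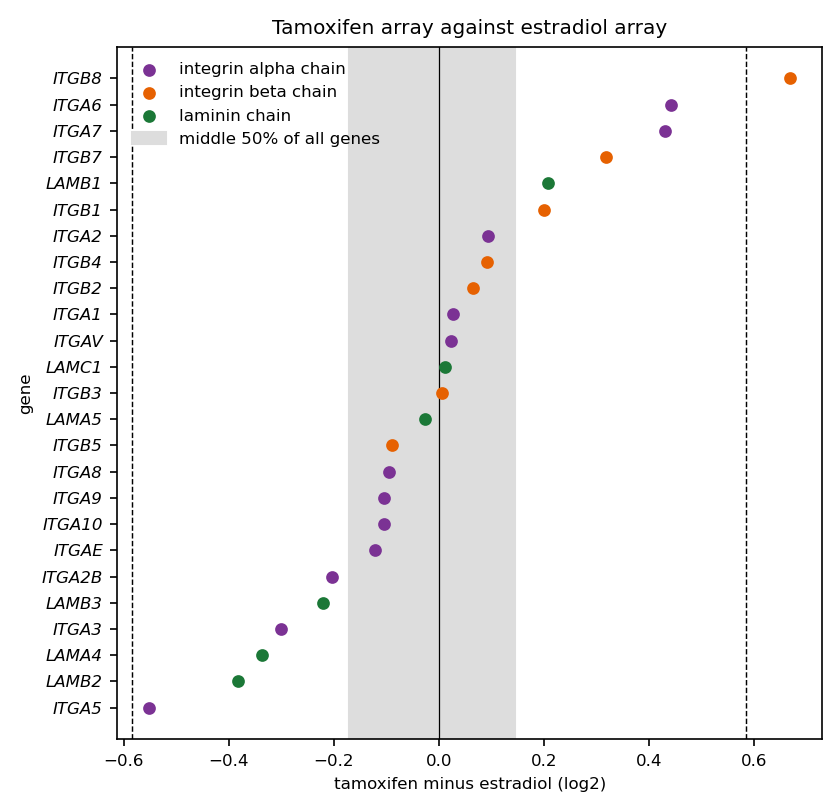
Tamoxifen minus estradiol difference (x axis, log2) of the 25 genes above the floor (y axis, in order), coloured by chain type, with dashed lines at 1.5-fold and the grey band spanning the middle 50% of all genes. ITGB8 at 0.67 lies past the upper line, and ITGA5 at -0.55 comes close to the lower one.

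Set side by side, chains that form 1 receptor differed unequally. ITGAV stood at 0.23 with tamoxifen, while its beta partners stood at 1.93 (ITGB8), 0.74 (ITGB1), 0.21 (ITGB5) and -0.14 (ITGB3). With estradiol ITGAV stood at 0.21 and the same partners at 1.26, 0.54, 0.30 and -0.15. With the vehicle doubled ITGAV was at 0.36 with tamoxifen and 0.33 with estradiol. In that reading ITGB8 was at 1.34 and 0.67, ITGB1 at 0.29 and 0.09, ITGB5 at 0.31 and 0.39 and ITGB3 at -0.20 and -0.21. ITGB1 thus stood above ITGAV as deposited and below it with the vehicle doubled. The probe sets above the floor disagreed in size for ITGB1 and in sign for ITGB3 and ITGB5. Of the alpha partners of ITGB1, ITGA2 was high with both ligands and ITGA5 low with tamoxifen, and ITGA1 was at -0.01 and -0.03. Its partners ITGA3, ITGA6 and ITGA7 were at -0.43, 0.38 and 0.46 with tamoxifen and at -0.12, -0.07 and 0.03 with estradiol. ITGA8, ITGA9 and ITGA10 were at 0.03, 0.20 and -0.22 with tamoxifen and at 0.13, 0.31 and -0.11 with estradiol. For ITGA6, ITGA7 and ITGA9 other probe sets differed, as given above. The tamoxifen value of ITGA1 averages probe sets at 0.24 and -0.25, on opposite sides of 0. In the alpha 6 beta 4 pair ITGA6 and ITGB4 were at 0.38 and -0.15 with tamoxifen (ITGB4 from probe sets that disagree) and at -0.07 and -0.25 with estradiol. In the trimer of LAMA5, LAMB1 and LAMC1 the tamoxifen differences were 0.05, -0.10 and 0.66, and the estradiol differences 0.07, -0.31 and 0.65. With the vehicle doubled they were 0.13, 0.04 and 0.28 with tamoxifen and 0.16, -0.17 and 0.27 with estradiol. The LAMB1 probe sets above the floor lay on opposite sides of 0 with estradiol.

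Genes that work with integrins inside the cell differed from vehicle in both directions, with a median below that of all genes (0.02 with either ligand). Of 44 adhesion machinery genes with a probe set, 40 lay above the floor, and their median was -0.18 with tamoxifen and -0.16 with estradiol. With tamoxifen 7 of 40 were at least 1.5-fold lower, beside 4.32% of all genes, and 2 higher, beside 6.97%. PXN (paxillin, a focal adhesion scaffold) was at -0.79, TRIP6 (an adhesion LIM protein) at -0.79, FYN (a SRC-family kinase) at -0.79 and TNS1 (tensin, which binds beta chain tails) at -0.70. With estradiol 4 of 40 were lower, beside 2.64%, and 1 higher, beside 5.83%, led by KANK1 (0.74), TNS1 (-0.73), TRIP6 (-0.63) and LIMS2 (-0.60). Doubling the vehicle left 3 lower (beside 3.64%) and 1 higher (beside 7.14%) with tamoxifen, where FYN (-0.91), ZYX (-0.67), NEDD9 (-0.65) and RAP1A (0.64) led. In that setting 2 were lower (beside 1.91%) and 1 higher (beside 4.39%) with estradiol, and the medians were -0.10 and -0.07. No adhesion machinery gene differed by 1.5-fold between tamoxifen and estradiol, beside 1.57% of all genes higher with tamoxifen and 2.2% lower.

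Of 11 hemidesmosome and tetraspanin partners, all above the floor, 2 were lower with tamoxifen, beside 4.32% of all genes. With estradiol none passed 1.5-fold, beside 5.83% of all genes higher and 2.64% lower. None passed with the vehicle doubled, beside 7.14% of all genes higher and 3.64% lower with tamoxifen and 4.39% and 1.91% with estradiol. The median in that reading was -0.32 with tamoxifen and -0.06 with estradiol, against -0.12 and -0.07 as deposited. CD151, the tetraspanin bound to laminin-binding integrins, was at -0.74 with tamoxifen and -0.26 with estradiol, and -0.48 and -0.003 with the vehicle doubled. BSG (basigin) was at -0.59 and -0.46, and -0.32 and -0.19 with the vehicle doubled. Of 11 basement membrane and other laminin partners with a probe set, 7 lay above the floor, with 1 higher (beside 6.97% of all genes) and 2 lower (beside 4.32%) with tamoxifen and 1 higher (beside 5.83%) with estradiol. With the vehicle doubled HSPG2 was the 1 gene past the line, lower with tamoxifen, beside 3.64% of all genes. NTN4, a laminin-related netrin, was at 0.96 and 1.16, and 0.12 and 0.31 with the vehicle doubled. HSPG2 (perlecan) was at -0.94 and -0.57 (-0.73 and -0.36 doubled). FRAS1 was at -0.65 and -0.46 (-0.46 and -0.27 doubled). NTN1 was at -0.68 between tamoxifen and estradiol.

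Of 36 other integrin ligands with a probe set, 21 lay above the floor, with a median of 0.16 with tamoxifen (4 higher and 1 lower) and 0.31 with estradiol (4 higher and none lower). Of all genes, 6.97% were higher and 4.32% lower with tamoxifen, and 5.83% higher and 2.64% lower with estradiol. The medians were 0.09 and 0.14 with the vehicle doubled. THBS1 (thrombospondin, which also activates latent TGF-beta) was at 0.96 and 0.61, CCN3 at 0.86 and 0.98, and LTBP1 (which holds latent TGF-beta in the matrix) at 0.83 and 0.66. ICAM1, the ligand of leukocyte integrins, was at 0.12 with tamoxifen and 1.34 with estradiol, and -1.21 between tamoxifen and estradiol. MFGE8, an RGD protein bound by alpha v integrins, was at -0.70 and -0.40 (-0.33 and -0.04 doubled). In the doubled-vehicle reading 3 were higher with tamoxifen, beside 7.14% of all genes, and ICAM1 (0.73) was the 1 higher with estradiol, beside 4.39%. LTBP1 (0.70), TGFB1 (0.67) and TINAGL1 (0.59) were the 3, and THBS1 (0.41 and 0.07) and CCN3 (-0.01 and 0.11) were not among them. All counts on these lists describe 3 arrays.

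**Figure D5:**
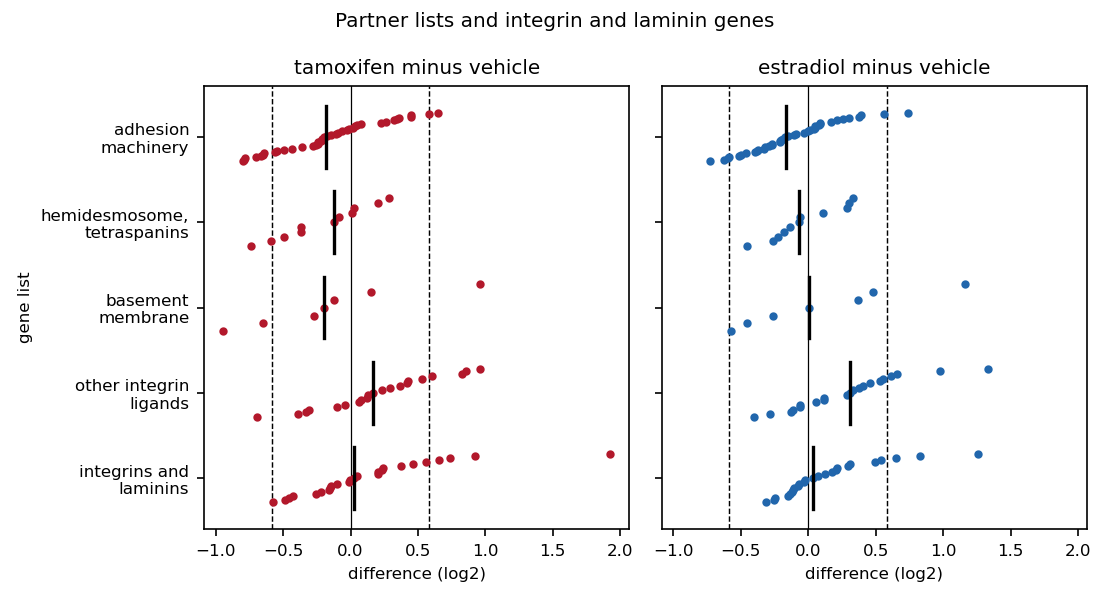
Differences from vehicle (x axis, log2) with tamoxifen (left) and estradiol (right) for genes above the floor in 4 partner lists and for the 25 integrin and laminin genes (y axis), 1 point a gene, with black bars at the medians and dashed lines at 1.5-fold. The adhesion machinery has its median at -0.18 and -0.16, while the other integrin ligands have theirs at 0.16 and 0.31.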

How the data were processed

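Biotin-labelled RNA of MDA-MB-231 cells was put on Affymetrix arrays, per the labels' protocols. The authors' deposited log2 values of 3 columns were used. The submitters' processing notes name RMA without a version. Base 2 and direction were assumed, and no source used here gives the baseline. Probe sets were named from platform annotation (41097 with 1 symbol, 1801 with several, 11777 not listed), and 0 symbols needed updating against RefSeq. Bands of brightness (8 to 16, 4 to 8, 2 to 4, below 2) were read from the binary steps of the values, allowing for the finer steps of the vehicle column. This was tested on simulated data. Differences were computed with Python 3.11.15, pandas 2.3.3 and numpy 2.4.6, and figures with matplotlib 3.10.9. The size rule was 1.5-fold, and no test was possible with 1 array per group. Named genes were all members above the floor and up to 4 genes with the largest absolute difference of each partner list per comparison, with cell type markers from fixed lists. The members, lists and alternatives were chosen with earlier results of these data known.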

Additional observations from a re-analysis of the deposited data

How the results depend on the processing

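The alternatives were no floor, a floor of 8, all probe sets averaged, no probe set types that may cross-react (names ending in _x_at, _s_at or _a_at), centring within brightness bands and, for the vehicle comparisons, a doubled vehicle. A median was counted as moved at a shift of 0.1 or more. With all probe sets averaged the genes at least 1.5-fold higher numbered 2 with tamoxifen and 1 with estradiol against vehicle, and 0 for tamoxifen against estradiol. With the vehicle doubled they numbered 2 with tamoxifen and 1 with estradiol, and 2 genes were lower with tamoxifen. Centring within bands left 1 gene lower with tamoxifen. The floor of 8 put the median at 0.21 with tamoxifen and 0.18 with estradiol over 17 genes, and leaving out cross-reacting types put it at 0.22 with tamoxifen over 16 genes. These 2 settings test fewer genes; for the others the cause was not tested. No other count moved by over 1.5 times, and no gene past the rule turned its sign under any of these alternatives that gave it a value (ITGB1 has none without cross-reacting types). ITGB8 passed the rule against vehicle with both ligands under each alternative but 1: with all probe sets averaged it stood at 0.46 with estradiol, and at 0.20 for tamoxifen against estradiol. No paired analysis was possible because each group holds 1 array. Without levels or scanner files, signal over background could be judged by band alone, and dim probe sets limit what can be said of 10 of the 35 genes.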
